A study of Mus musculus with 13 samples.

Results

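The genes described here make, break down and regulate the polyamines. There were 10 of them, Odc1, Amd1, Amd2, Srm, Sms, Smox, Sat1, Oaz1, Oaz2 and Azin1, chosen by symbol from the 21868 genes of a table of normalized counts from mouse gastrocnemius, the large calf muscle. All 10 were found under their symbols and all 10 had a mean normalized count of at least 10, the filter used for testing. These genes and the other lists used below were chosen with earlier results of these data known. RNA was sequenced from 13 male C57BL/6N mice, each a separate animal. The mice were 7 weeks old at the start, had 1 week to acclimatize, became obese on a diet with 60 kcal% fat for 15 to 17 weeks and were then moved to standard chow for the 3 weeks of treatment. Vehicle-treated mice (n = 5) received phosphate-buffered saline. Semaglutide-treated mice (n = 5) received semaglutide at 30 nM/kg per day by intraperitoneal injection. Semaglutide + ketone ester–treated mice (n = 3) received the same injections with a ketone ester at 0.114 g/mL in their drinking water. The labels of the vehicle and semaglutide groups also name a placebo, which the paper does not describe. Semaglutide is an agonist of the glucagon-like peptide 1 receptor that lowers food intake, and a ketone ester is a compound that, taken by mouth, raises blood β-hydroxybutyrate. The high-fat diet, the return to chow and the daily injections were shared by every group, and neither a lean group nor a group given the ketone ester without semaglutide was analysed here. Mice were named by the numbers in their labels, 1 to 5 for vehicle, 13 to 17 for semaglutide, and 19, 21 and 22 for semaglutide + ketone ester.

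Polyamines (putrescine, spermidine and spermine) are small positively charged molecules that bind RNA and are needed for translation and cell growth. Ornithine decarboxylase makes putrescine from ornithine. S-adenosylmethionine decarboxylase supplies the aminopropyl groups with which spermidine synthase and spermine synthase build the larger polyamines. Spermine oxidase and spermidine/spermine acetyltransferase return them to the smaller ones, and antizymes, whose own translation needs polyamines, send ornithine decarboxylase to the proteasome. In skeletal muscle, expression of some of these genes is known to be sensitive to androgens, fasting and disuse.

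Amd1 and Amd2 both encode S-adenosylmethionine decarboxylase, and their sequences are shown because they bear on how the counts of the pair can be read. In the GENCODE vM21 annotation of GRCm38, Amd1 lies on chr10:40287458-40302186, minus strand, with 8 exons in its longest coding transcript. Amd2 lies on chr10:35708675-35711892, minus strand, in 1 exon with no intron. Their coding sequences of 1005 bases each were identical at 1004 bases (99.9%), with a single substitution, G796C, counted from the first base of the start codon with the Amd1 base first. The coding window of 59 bases, the length of 1 read, around that position is given for Amd1 (chr10:40290157-40290215, minus strand) and Amd2 (chr10:35710735-35710793, minus strand), with the differing base in capitals.
Amd1: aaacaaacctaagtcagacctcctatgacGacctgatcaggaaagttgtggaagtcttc
Amd2: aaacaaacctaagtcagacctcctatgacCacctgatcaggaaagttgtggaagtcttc

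Of the 3146 windows of 59 bases along the Amd1 transcript, 83.7% also occurred in the Amd2 transcript, so that most single reads of this length could not be assigned to either gene by sequence. Both transcripts also start with the same short upstream open reading frame of 21 bases, which had 6 codons before its stop and lay at bases 12 to 32 of the Amd1 5′ UTR (chr10:40302155-40302175) and 13 to 33 of the Amd2 5′ UTR (chr10:35711860-35711880). An upstream frame at this place is the known polyamine-sensitive brake on translation of Amd1, and its start and stop codons are in capitals.
Amd1 and Amd2: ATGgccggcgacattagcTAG

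The sequences before the transcription starts were different. From 100 bases before to 30 bases after each RefSeq start (GRCm38), the bases in capitals mark a stretch that Amd1 and Amd2 share and that runs on past the windows shown. It began at base 3 of the Amd1 transcript and at base 1 of the Amd2 transcript. In the 240 bases furthest upstream in each RefSeq promoter window the longest run in common was 7 bases. The promoter windows of 300 bases had a GC content of 63.0% for Amd1 and 40.7% for Amd2, with 24 and 6 CpG dinucleotides, against medians of 52.7% and 7 over 32851 mouse promoters of the same length. The Amd1 window shown is chr10:40302159-40302288 and the Amd2 window chr10:35711862-35711991, both on the minus strand.
Amd1: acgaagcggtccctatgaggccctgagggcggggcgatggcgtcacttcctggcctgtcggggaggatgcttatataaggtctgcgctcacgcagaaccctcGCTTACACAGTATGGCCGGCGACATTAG
Amd2: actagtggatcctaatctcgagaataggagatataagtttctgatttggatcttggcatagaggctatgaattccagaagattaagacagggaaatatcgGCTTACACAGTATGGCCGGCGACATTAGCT

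Other members also share sequence with other genes. Windows of 59 bases that occurred in a transcript of another gene made up 51.6% of the Oaz1 transcript, all of them in the processed pseudogene Oaz1-ps, 37.7% of Odc1, 28.5% of Sms, all in Sms-ps, and 9.13% of Oaz2. They made up 2.03% of Sat1, 1.02% of Srm and 0 windows of Smox and Azin1. Neither Oaz1-ps nor Sms-ps was a row of the table, and how reads that match several genes were counted is not given in the sources used here.

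Before the results, semaglutide mouse 13 needs mention. Its values of Amd1, Amd2, Srm and Smox were nearer to those of vehicle-treated mice than the values of the other 4 semaglutide-treated mice were, and in a fit that weights each mouse by its own variance it had the lowest weight of the 13, 0.232, followed by semaglutide mouse 16 with 0.389. Values without mouse 13 are given below where leaving it out changed a call or moved a group mean by over 1.5 times, which it did for Amd1 (1.56 times) and Smox (1.64 times). Between 15319471 and 23498162 reads were counted on genes per mouse. The labels give all mice the same batch.

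The 10 genes in each mouse are plotted as normalized counts, reads on a gene after scaling each library by a single factor. Under semaglutide Amd1, Amd2 and Smox were at 35.5% or less of their vehicle means and Srm at 236%, and without mouse 13 Amd1, Amd2 and Smox stood at 12.6%, 13.2% and 21.7%. By contrast, under semaglutide + ketone ester all 10 genes had means between 75.9% and 109% of vehicle.

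**Figure D1:**
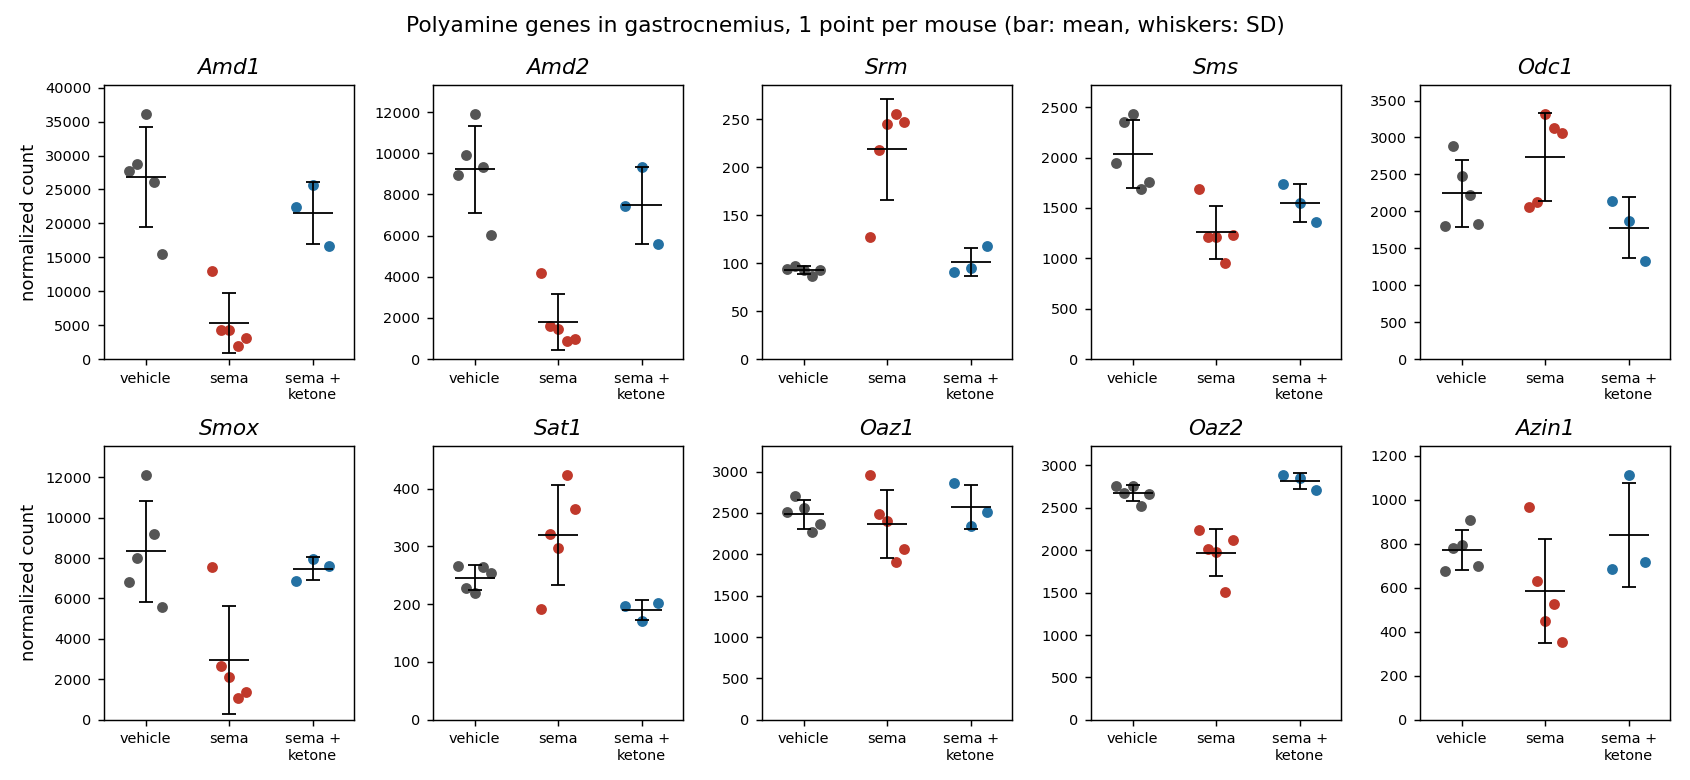
Normalized counts (y axes, each from 0) of the 10 polyamine genes in each mouse of the 3 groups (x axis), with 1 point per mouse, a bar at the group mean and whiskers of 1 SD. In the semaglutide group 1 mouse, number 13, lies apart from the other 4 in the panels of Amd1, Amd2, Srm and Smox.

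Semaglutide against vehicle addressed what the drug did to these transcripts in muscle. By limma on log2(normalized count + 1), with p-values adjusted over the 12303 genes tested and a threshold of 0.05, 6 of the 10 genes differed. Amd1, Amd2, Sms, Smox and Oaz2 were lower and Srm was higher. Over all genes tested 26.5% differed in this comparison, 12.5% higher and 13.9% lower. Because the 10 genes were chosen with earlier results known, counts of them beside such shares, here and below, are a description and not a test. The median log2 fold change was -0.47 over the 10 genes and -0.0029 over all genes tested. Without mouse 13 the number was 8, with Sat1 higher and Azin1 lower as well. Calls over all genes tested rose too, from 3255 of 12303 to 4612 of 12320. Amd1 and Amd2, which share most of their sequence, count as 2 genes here and in the counts below. With all mice and the 2 rows summed to 1, 5 genes differed.

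Semaglutide + ketone ester against semaglutide addressed what the ester changed in mice that received the drug. In this comparison 7 of the 10 genes differed, with Amd1, Amd2, Smox and Oaz2 higher and Srm, Sat1 and Odc1 lower, against 20.7% of all genes tested, 10.0% higher and 10.7% lower. The median log2 fold change was 0.42 over the 10 genes and -0.00024 over all genes tested. The number was 9 without semaglutide mouse 13 and 4 without semaglutide + ketone ester mouse 21 or without mouse 22. The semaglutide-treated mice are the same in both comparisons, so the opposite signs are not independent of each other. Because the tissue was sequenced in bulk, fewer cells of a type and less RNA per cell cannot be told apart in any of these values.

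The third comparison, semaglutide + ketone ester against vehicle, gave 0 of the 10 genes by limma, against 0.366% of all genes tested, and 0 by edgeR and by DESeq2 on the recovered reads. At an unadjusted p under 0.05 there was 1 gene, Sms (log2 fold change -0.39, 95% interval -0.74 to -0.03), against 10.4% of all genes tested. The intervals left room for sizeable differences. For Amd1 the log2 fold change was -0.29 with an interval from -1.23 to 0.65, and for Smox -0.11 with an interval from -1.09 to 0.87. They were narrower for Srm (0.12, from -0.29 to 0.53), Oaz1 (0.05, from -0.22 to 0.32) and Oaz2 (0.07, from -0.16 to 0.30).

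**Figure D2:**
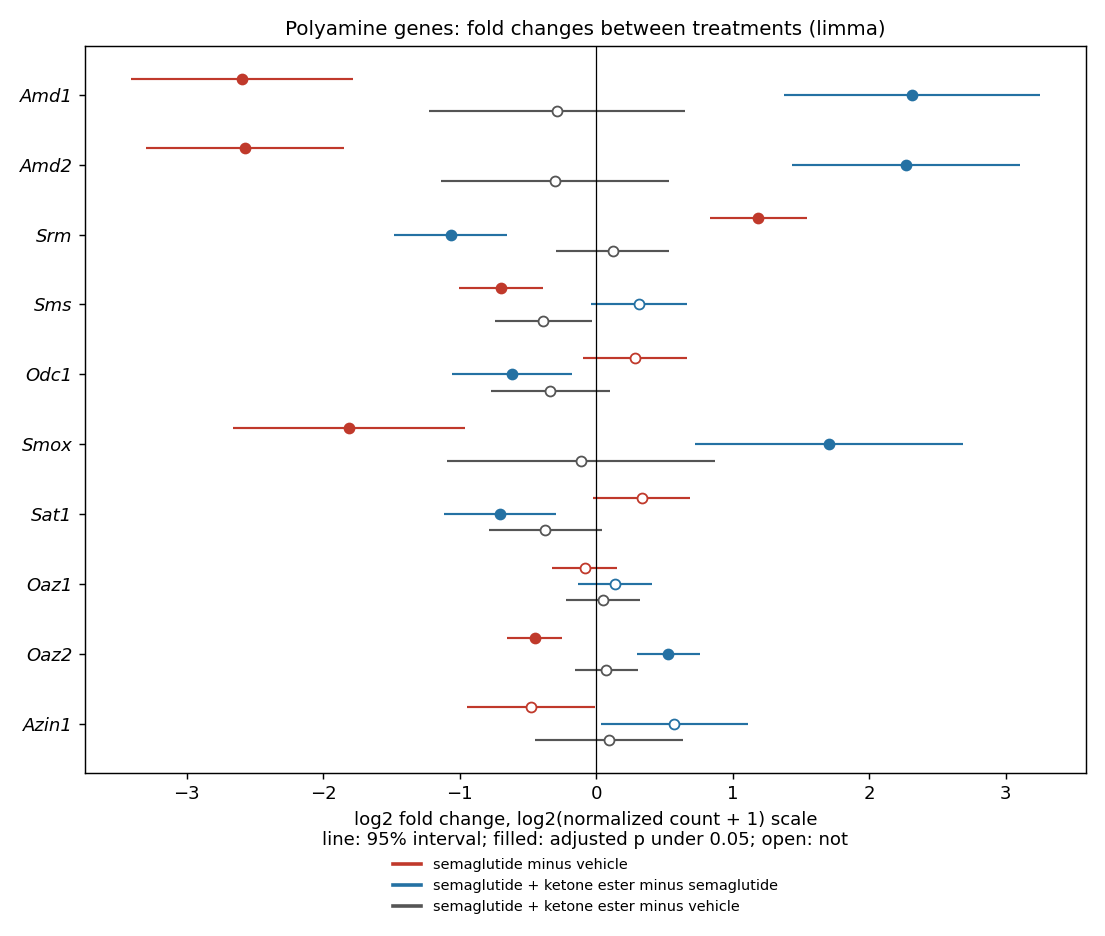
Log2 fold changes of the 10 polyamine genes (x axis) by limma in the 3 comparisons, with 95% intervals as lines and filled points where the adjusted p was under 0.05. Amd1, Amd2 and Smox have the widest intervals, and every grey point, for semaglutide + ketone ester against vehicle, is open.

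The decarboxylase genes Amd1 and Amd2 showed the largest differences of the 10. Amd1 had normalized counts of 27649.8, 28699, 36078, 26109 and 15544 in vehicle-treated mice 1 to 5. In semaglutide-treated mice 13 to 17 the counts were 12955, 4284, 4263, 1979 and 3039.6. In semaglutide + ketone ester–treated mice 19, 21 and 22 they were 22339, 25669.6 and 16627. Every semaglutide-treated mouse was below every mouse of the other groups, with mouse 13 the nearest to them at 48.3% of the vehicle mean.

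Group means of Amd1 were 26816 ± 7376 (SD, n = 5) for vehicle, 5304 ± 4383 (SD, n = 5) for semaglutide and 21545 ± 4573 (SD, n = 3) for semaglutide + ketone ester, which makes the semaglutide mean 5.06-fold lower than vehicle. Without mouse 13 the semaglutide mean was 3391 ± 1107 (SD, n = 4), 7.91-fold lower than vehicle. The log2 fold change was -2.60 (SE 0.38, adjusted p = 0.000368, limma) for semaglutide against vehicle and 2.31 (SE 0.44, adjusted p = 0.00291) for semaglutide + ketone ester against semaglutide. Of the 12303 genes tested, Amd1 was the 35th from the bottom in the first of these comparisons and the 54th from the top in the second.

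Amd2 followed the same pattern at a lower level. Its normalized counts were 8939, 9921, 11897, 9334 and 6012 in vehicle-treated mice, 4159, 1582, 1453, 871 and 956 in semaglutide-treated mice, and 7453, 9351 and 5594 in semaglutide + ketone ester–treated mice. Again all 5 values of the semaglutide group lay below both others. The log2 fold change was -2.57 (SE 0.34, adjusted p = 0.000177, limma) against vehicle and 2.27 (SE 0.39, adjusted p = 0.00172) between semaglutide + ketone ester and semaglutide.

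The ratio of Amd1 to Amd2 counts was nearly the same in each group, 2.88 for vehicle, 2.84 for semaglutide and 2.91 for semaglutide + ketone ester, with a range of 2.27 to 3.18 over the 13 mice. With the 2 rows summed to 1, the log2 fold change was -2.59 (adjusted p = 0.000302, limma) for semaglutide against vehicle and 2.30 (adjusted p = 0.00255) for semaglutide + ketone ester against semaglutide. Since most of their read-length windows are identical, the share of the counts that came from each gene was not tested, and the pair is best read as 1 measurement.

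Together Amd1 and Amd2 took 0.186% ± 0.048 (SD, n = 5) of all normalized counts under vehicle. Under semaglutide the share stood at 0.0405% ± 0.0312 (SD, n = 5), or 0.0268% ± 0.0069 (SD, n = 4) without mouse 13, and with the ketone ester added it was 0.144% ± 0.033 (SD, n = 3). All 10 polyamine genes together took 0.284%, 0.112% and 0.230% in the same order, so that this pair held most of their counts in the first and the last of these groups.

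Srm, which encodes spermidine synthase, was the one gene of the 10 that passed the threshold as higher under semaglutide with all mice in the fit. Normalized counts were 93.8, 97.5, 92.8, 86.5 and 93.1 in vehicle-treated mice, 128, 219, 245, 255 and 247 in semaglutide-treated mice, and 91.1, 95.4 and 118 in semaglutide + ketone ester–treated mice. All values of the semaglutide group lay above both others without overlap, and the vehicle-treated mice differed little from each other, with an SD of 3.98 around a mean of 92.8 (n = 5). The semaglutide mean was 2.36-fold the vehicle mean. On the log2 scale the change was 1.19 (SE 0.17, adjusted p = 0.000279, limma) for semaglutide against vehicle and -1.07 (SE 0.19, adjusted p = 0.00225) for semaglutide + ketone ester against semaglutide. Amd1, Amd2, Srm, Sms and Oaz2 were the 5 genes whose values did not overlap between semaglutide and vehicle, against 14.7% of all genes tested. The pair of Amd1 and Amd2 is counted as 2 of the 5.

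Sms encodes spermine synthase, the enzyme that adds the second aminopropyl group. Normalized counts were 1945, 2354, 2429, 1689 and 1756 in vehicle-treated mice, 1686, 1213, 1215, 953 and 1226 in semaglutide-treated mice, and 1733, 1544 and 1358 in semaglutide + ketone ester–treated mice. The highest semaglutide-treated mouse, number 13, was just under the lowest vehicle-treated mouse, and the semaglutide + ketone ester–treated mice overlapped with both groups. For semaglutide against vehicle the change was -0.70 (SE 0.14, adjusted p = 0.0032, limma) on the log2 scale. Between semaglutide + ketone ester and semaglutide it was 0.31 (SE 0.17, adjusted p = 0.195), and without mouse 13 it was 0.42 (adjusted p = 0.0296). In 23 of 24 alternatives this second difference did not pass the threshold. Its log2 fold change was as low as 0.08 and its adjusted p as high as 0.723 among them.

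The 2 aminopropyl transferases thus moved in opposite directions under semaglutide. The ratio of Sms to Srm normalized counts was 18.9 to 26.2 in vehicle-treated mice, 3.73 to 13.2 under semaglutide and 11.5 to 19.0 with the ketone ester added. The value of 13.2 was mouse 13, and the other 4 semaglutide-treated mice were at 5.55 or less. These counts are not per length, so the size of the ratio says nothing of the relative abundance of the transcripts, and its differences between groups are given as a description.

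Odc1 encodes ornithine decarboxylase, the first and usually rate-limiting enzyme of the pathway. Normalized counts were 1799, 2882, 2477, 2224 and 1833 in vehicle-treated mice, 2053, 2131, 3314, 3131 and 3062 in semaglutide-treated mice, and 2146, 1863 and 1333 in semaglutide + ketone ester–treated mice. Semaglutide-treated mice 15, 16 and 17 were above all other mice, while mice 13 and 14 lay within the range of vehicle. Odc1 had a log2 fold change of 0.28 (SE 0.18, adjusted p = 0.261, limma) for semaglutide against vehicle. For semaglutide + ketone ester against semaglutide it was -0.62 (SE 0.20, adjusted p = 0.0448), close to the threshold. The second difference had an adjusted p of at least 0.05 under 10 of 24 alternatives, including leaving out vehicle mouse 3 or 4, semaglutide mouse 15, 16 or 17, or semaglutide + ketone ester mouse 21 or 22, with adjusted p up to 0.227.

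**Figure D3:**
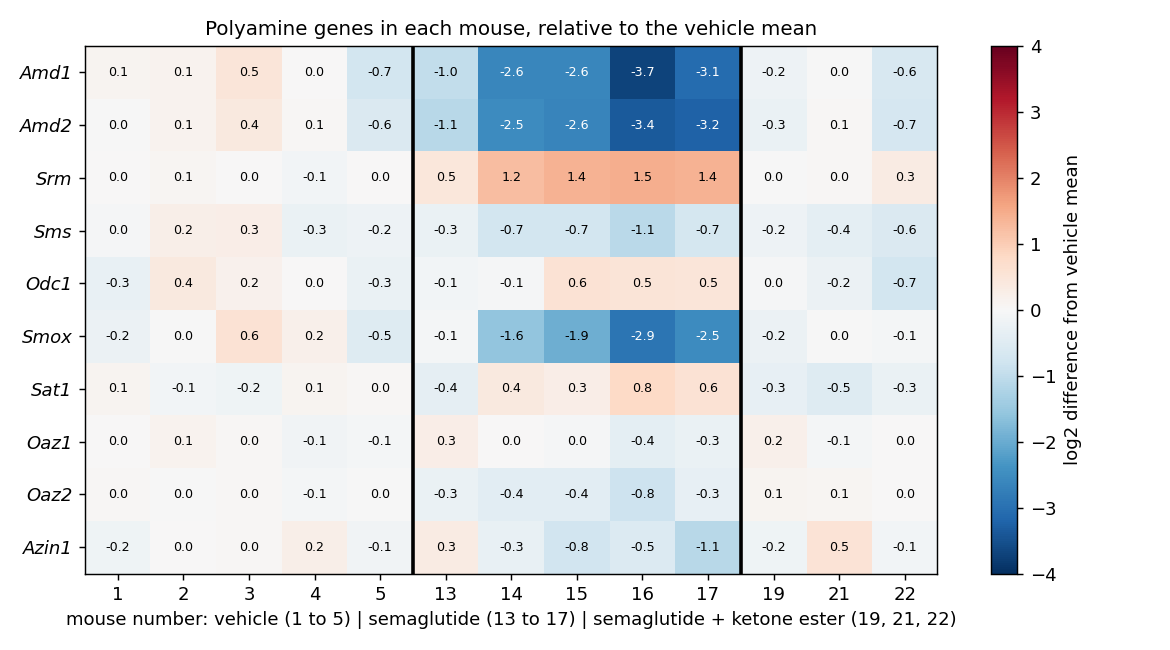
Log2 difference from the vehicle mean, on the log2(normalized count + 1) scale, of the 10 polyamine genes (rows) in each of the 13 mice (columns, separated by group), with blue below and red above the vehicle mean. Semaglutide-treated mice 14 to 17 are blue for Amd1, Amd2 and Smox and red for Srm, and mouse 13 is paler in all 4 rows.

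Of the catabolic genes, Smox encodes spermine oxidase, which turns spermine into spermidine. Its normalized counts were 6807, 7982, 12103, 9179.7 and 5582 in vehicle-treated mice. They were 7577, 2679, 2096, 1060.4 and 1392 in semaglutide-treated mice, and 6845, 7939.7 and 7612 in semaglutide + ketone ester–treated mice. Mice 14 to 17 were below every mouse of the other groups, whereas mouse 13, at 91.0% of the vehicle mean, lay inside both of their ranges. The semaglutide mean was 2961 ± 2656 (SD, n = 5) with all mice, and 1807 ± 724 (SD, n = 4) without mouse 13.

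For Smox the log2 fold change was -1.81 (SE 0.40, adjusted p = 0.00477, limma) for semaglutide against vehicle, and -2.24 without mouse 13. Between semaglutide + ketone ester and semaglutide it was 1.70 (SE 0.46, adjusted p = 0.0186). This second difference did not pass the threshold with edgeR (adjusted p = 0.0563), with DESeq2 (adjusted p = 0.0729), with only the 2 groups in the model, or without semaglutide + ketone ester mouse 21 or mouse 22.

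Sat1 encodes spermidine/spermine acetyltransferase, which marks polyamines for breakdown or export. Normalized counts were 265, 228, 219, 264 and 254 in vehicle-treated mice, 191, 321, 297, 423 and 366 in semaglutide-treated mice, and 197, 170.3 and 202 in semaglutide + ketone ester–treated mice. Mice 14 to 17 were above every other mouse and mouse 13 below every vehicle-treated mouse. Sat1 had a log2 fold change of 0.33 (SE 0.17, adjusted p = 0.155, limma) for semaglutide against vehicle, and 0.51 (adjusted p = 0.00284) without mouse 13. For semaglutide + ketone ester against semaglutide it was -0.71 (SE 0.19, adjusted p = 0.0196), a difference that did not pass without semaglutide + ketone ester mouse 21 or 22 or with only the 2 groups in the model. All 3 semaglutide + ketone ester–treated mice were below the 5 vehicle-treated mice, and groups without overlap in either direction were found for 11.3% of all genes tested. For this pair of groups Sat1 had a difference on the log2 scale of -0.37 (95% interval -0.78 to 0.04, adjusted p = 0.544).

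The antizyme system sets the activity of ornithine decarboxylase after translation. Antizymes are made by a frameshift of the ribosome at a UGA stop codon that polyamines promote, and the sequences around that place are shown because both Oaz1 and Oaz2 carry it. The 30 bases lie at chr10:80828280-80828309 for Oaz1 and chr9:65686257-65686286 for Oaz2, plus strand, GRCm38, and the capitals mark the frameshift site of 7 bases as found in GENCODE transcripts. Their coding sequences were 66.0% identical over the aligned bases.
Oaz1: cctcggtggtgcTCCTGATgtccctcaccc
Oaz2: cctctgtggtgcTCCTGATgcccctcaccc

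Oaz1 had normalized counts of 2511, 2711, 2556, 2267 and 2368 in vehicle-treated mice, 2958, 2485, 2405, 1903 and 2059 in semaglutide-treated mice, and 2861, 2337 and 2509 in semaglutide + ketone ester–treated mice. The 3 groups overlapped. Its log2 fold change was -0.09 (95% interval -0.32 to 0.15, adjusted p = 0.598, limma) for semaglutide against vehicle and 0.13 (from -0.14 to 0.40, adjusted p = 0.492) for semaglutide + ketone ester against semaglutide, and both signs turned when the libraries were rescaled to equal totals.

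Oaz2 had normalized counts of 2759, 2670.2, 2762, 2525 and 2662 in vehicle-treated mice, 2243, 2012, 1976, 1511 and 2118 in semaglutide-treated mice, and 2887, 2852 and 2706 in semaglutide + ketone ester–treated mice. Values of the semaglutide group lay below both others without overlap. The log2 fold change was -0.45 (SE 0.09, adjusted p = 0.00339, limma) for semaglutide against vehicle and 0.53 (SE 0.11, adjusted p = 0.00432) for semaglutide + ketone ester against semaglutide. Over the alternatives run, the first ranged from -0.50 to -0.28 and the second from 0.29 to 0.58. In the second comparison Amd1, Amd2, Srm and Oaz2 were the 4 genes without overlap, against 20.1% of all genes tested.

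Azin1 encodes antizyme inhibitor, a relative of ornithine decarboxylase without its activity that binds antizymes in its place. The Azin1 and Odc1 coding sequences were 61.6% identical over the aligned bases. Normalized counts of Azin1 were 679, 780.1, 794, 907 and 699 in vehicle-treated mice, 966, 629, 449, 526.3 and 352 in semaglutide-treated mice, and 686, 1112 and 719 in semaglutide + ketone ester–treated mice. Mice 14 to 17 were below every mouse of the other groups, while mouse 13 was above every vehicle-treated mouse. Azin1 had a log2 fold change of -0.48 (SE 0.22, adjusted p = 0.12, limma) for semaglutide against vehicle and 0.57 (SE 0.25, adjusted p = 0.122) for semaglutide + ketone ester against semaglutide. Without mouse 13 these became -0.68 (adjusted p = 0.00521) and 0.77 (adjusted p = 0.00609).

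The study itself screened genes across all 3 groups at once, by analysis of variance at a p of 0.05 together with a 1.5-fold limit. The p was taken here without adjustment and the fold as the span of the group means, which is a reading of that screen. Under it 6 of the 10 genes were altered, Amd1, Amd2, Srm, Sms, Smox and Sat1, against 16.1% of all genes tested, with the pair of Amd1 and Amd2 counted as 2. Oaz2 met the limit on p but not that on the span, which was 1.43-fold. Odc1, with a span of 1.54-fold, met the limit on the span but not that on p, and Azin1 (1.44-fold) and Oaz1 (1.09-fold) met neither.

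Levels are given per kilobase of transcript, taken from the transcript with the longest coding sequence. Of the read-length windows of Amd1, 83.7% also occur in Amd2, and Oaz1, Odc1 and Sms share windows with other genes. How such reads were counted is not given, so the places of these genes in the orders below hold only for the counts as they stand. In vehicle-treated mice the order of mean normalized counts per kilobase was Amd1 (8369), Smox (3839), Amd2 (2865), Oaz1 (2378), Oaz2 (1452), Odc1 (1016), Sms (547), Sat1 (274), Azin1 (158) and Srm (69.3). From Oaz1 downwards each gene was above the next in every vehicle-treated mouse without overlap of their ranges, whereas Amd1 and Smox, Smox and Amd2, and Amd2 and Oaz1 overlapped. Amd1 was the 77th highest of 12237 genes with a length in this group, and Srm the 6617th.

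Under semaglutide the order of the means per kilobase was Oaz1 (2263), Amd1 (1655), Smox (1364), Odc1 (1240.1), Oaz2 (1069.9), Amd2 (561), Sat1 (357), Sms (339), Srm (164) and Azin1 (120.0). Every pair of neighbours overlapped except Sms and Srm. Without mouse 13 the means per kilobase of Amd1 and Smox were 1058 and 833, below that of Odc1 (1318). With all 5 mice Amd1 was the 476th of the 12237 genes and Srm the 4083rd. Under semaglutide + ketone ester Amd1 (6725) and Smox (3440.3) were again the first and second, and Srm (75.8) was again the last. The levels of Oaz1 and Amd2, and of Sat1 and Azin1, overlapped in this group.

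**Figure D4:**
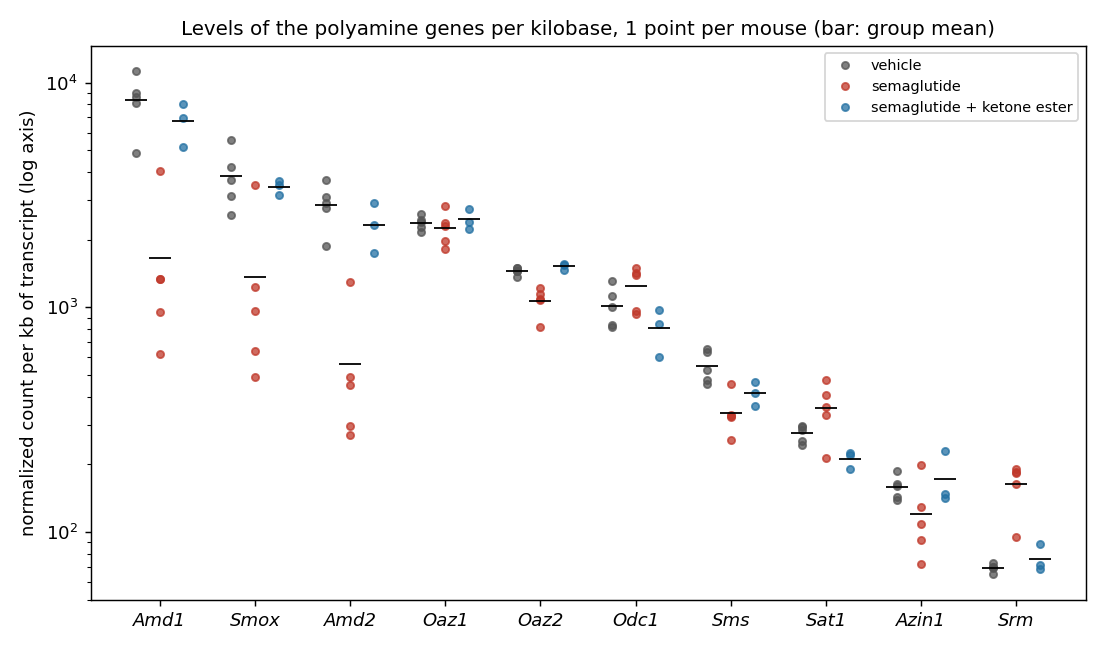
Normalized counts per kilobase of transcript (y axis, logarithmic) of the 10 polyamine genes (x axis, in the order of their vehicle means), with 1 point per mouse coloured by group and a bar at each group mean. The points of Amd1, Smox and Amd2 spread over the widest range under semaglutide, and Srm is the lowest gene in the other groups.

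As a description over the 13 mice, which carry the differences between groups as well as those between mice, the log2 values of Amd1 correlated with those of Smox with Pearson r = 0.97, of Sms with r = 0.889 and of Oaz2 with r = 0.921, and with those of Srm with r = -0.969. After the group means were taken away, r was 0.947 for Amd1 with Smox, 0.848 with Sms, 0.713 with Oaz2, -0.84 with Srm and -0.927 with Sat1. Mouse 13, the nearest of its group to vehicle in Amd1, Smox and Srm, takes part in each of these values. None was computed without it, so how far they rest on this mouse was not tested. Odc1 was less related to the others, with r between -0.377 and 0.351 for its deviations from group means.

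The genes whose pattern over the 13 mice was most like each of the members were found among all genes tested. For Amd1 they were Amd2 (r = 0.996), Glo1 (r = 0.988), which encodes glyoxalase, and Gdap1 (r = 0.985). For Amd2, apart from Amd1, they were the zinc transporter gene Slc30a2 (r = 0.984) and Ssx2ip (r = 0.984). Those for Smox were Pgm1 (r = 0.985), which encodes phosphoglucomutase, Serpine2 (r = 0.985) and Dagla (r = 0.983). For Srm they were Eif4ebp1 (r = 0.982), which encodes a repressor of cap-dependent translation, Mars (r = 0.981), which encodes methionyl-tRNA synthetase, and Atg2b (r = 0.976), which encodes an autophagy protein. Oaz2 was nearest to Hrasls (r = 0.988), Tarsl2 (r = 0.982) and Smco1 (r = 0.97), and Sms to Dusp3 (r = 0.968), Dnmt3a (r = 0.96) and Arfgef1 (r = 0.956). Likeness was lower for Sat1, with Galnt15 (r = 0.949), Plekhm2 (r = 0.945) and Xdh (r = 0.944), and for Odc1, with Dennd4c (r = 0.903), H6pd (r = 0.886) and Copb1 (r = 0.885).

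The promoters of 8 of the 10 genes were at hand from RefSeq (GRCm38.p6, 250 bases before to 50 after each start), with 2 windows for Sms. Those of Srm and Azin1 were not at hand and were not searched. On either strand, CACGTG, the E-box that MYC and MAX bind, was in 1 member window, that of Sms, and in 7.15% of all 32851 promoters. TGACGTCA, the cyclic AMP response element, was in 0 of the member windows and 1.79% of all promoters, and TGATGCAA, bound by ATF4 with C/EBP proteins, in 0 and 0.895%. TATAAA was found in the window of Oaz1, with its first base at -3 from the start, and in 13.6% of all promoters. Only exact matches were searched, so near matches in other windows were not counted. None of these 4 motifs overlaps another in the member windows.

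Other genes of the pathway were taken from lists by role. Across the 6 lists 36 genes were tested, and 12 genes listed with them had a mean under 10 and were not, among them the arginase genes Arg1 and Arg2 with means of 0.296 and 0.261. Between semaglutide and vehicle 13 of the 36 passed the threshold by limma, and between semaglutide + ketone ester and semaglutide 10, against 26.5% and 20.7% of all genes tested. For semaglutide + ketone ester against vehicle 0 of the 36 passed, and 3 had an unadjusted p under 0.05, against 10.4% of all genes tested.

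Of the transcriptional regulators, Myc, Nr3c1 and Mxd4 differed between semaglutide and vehicle (3 of 5 tested, 2 higher and 1 lower). Over all genes tested 26.5% differed, 12.5% higher and 13.9% lower. Myc encodes a transcription factor that is known to activate Odc1 and Srm. Its normalized counts were 112, 114, 78.0, 86.5 and 150.2 in vehicle-treated mice, 167, 179, 294, 289 and 287 in semaglutide-treated mice, and 107, 74.9 and 66.1 in semaglutide + ketone ester–treated mice. All values of the semaglutide group lay above both others. Groups without overlap were found for 14.7% of all genes tested between semaglutide and vehicle. Between semaglutide + ketone ester and semaglutide the share was 20.1%. The log2 fold change of Myc was 1.16 (adjusted p = 0.00187, limma) for semaglutide against vehicle and -1.53 (adjusted p = 0.00128) for semaglutide + ketone ester against semaglutide.

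Nr3c1, the glucocorticoid receptor gene, was lower under semaglutide (log2 fold change -0.74, adjusted p = 0.00195, limma) with normalized counts of 1076 to 1690.5 against 1787 to 2629 in vehicle-treated mice. With the ketone ester added its counts were 1438 to 1685, inside the semaglutide range. That group had log2 fold changes of 0.26 against semaglutide (adjusted p = 0.264, limma) and -0.48 against vehicle (adjusted p = 0.287). Max, the partner of MYC, and Mxd4, of a family that competes with it, were lower with the ketone ester than with semaglutide alone, with log2 fold changes of -0.39 and -0.37. Mxd4 was also higher under semaglutide than under vehicle by 0.27 (adjusted p = 0.0487).

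In ornithine and arginine supply 3 of 8 genes tested differed between semaglutide and vehicle, where 26.5% of all genes did. The largest change was in Slc7a2, which encodes a cationic amino acid transporter, with normalized counts of 1004 to 1742 in vehicle-treated mice, 2070.2 to 6730.4 under semaglutide and 2705 to 3245 with the ketone ester added. Its log2 fold change was 1.78 (adjusted p = 0.000567, limma), and between semaglutide + ketone ester and semaglutide -0.57 (adjusted p = 0.224). Oat, ornithine aminotransferase, was higher (0.45) and Slc25a15, the mitochondrial ornithine carrier, lower (-0.51). Slc25a15 was higher with the ketone ester than with semaglutide alone (0.65), and Ass1, argininosuccinate synthase, was lower (-1.32) at normalized counts of 4.8 to 25.2.

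In the methionine cycle and the salvage of methylthioadenosine, a by-product of spermidine and spermine synthesis, 3 of 10 genes tested differed between semaglutide and vehicle, a share near the 26.5% of all genes. Ahcy, which removes S-adenosylhomocysteine, was higher by 0.59 on the log2 scale (adjusted p = 0.0258, limma) and Mri1, of the salvage route, by 0.47, and Adi1, of the same route, was lower (-0.40). Between semaglutide + ketone ester and semaglutide Ahcy was lower (-0.71, adjusted p = 0.0262).

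Of 6 transport genes tested 2 were higher under semaglutide, Slc3a2 (0.49, adjusted p = 0.00101, limma), which encodes the heavy chain of amino acid transporters, and Atp13a2 (0.40, adjusted p = 0.00416), which encodes a lysosomal polyamine exporter. Both were lower with the ketone ester than with semaglutide alone, by log2 fold changes of -0.48 and -0.38. Over all genes tested 12.5% were higher in the first of these comparisons and 10.7% lower in the second. The hypusination genes act on eIF5A, the translation factor that carries a modified lysine made from spermidine. Of 4 tested, Dhps, deoxyhypusine synthase, was higher under semaglutide (0.29, adjusted p = 0.04999) at the edge of the threshold and lower with the ketone ester than with semaglutide alone (-0.48, adjusted p = 0.0115). Among the 3 remaining polyamine genes tested, Azin2 was higher under semaglutide than under vehicle (0.69, adjusted p = 0.0492) and Sat2 was higher with the ketone ester than with semaglutide alone (0.80, adjusted p = 0.0102).

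**Figure D5:**
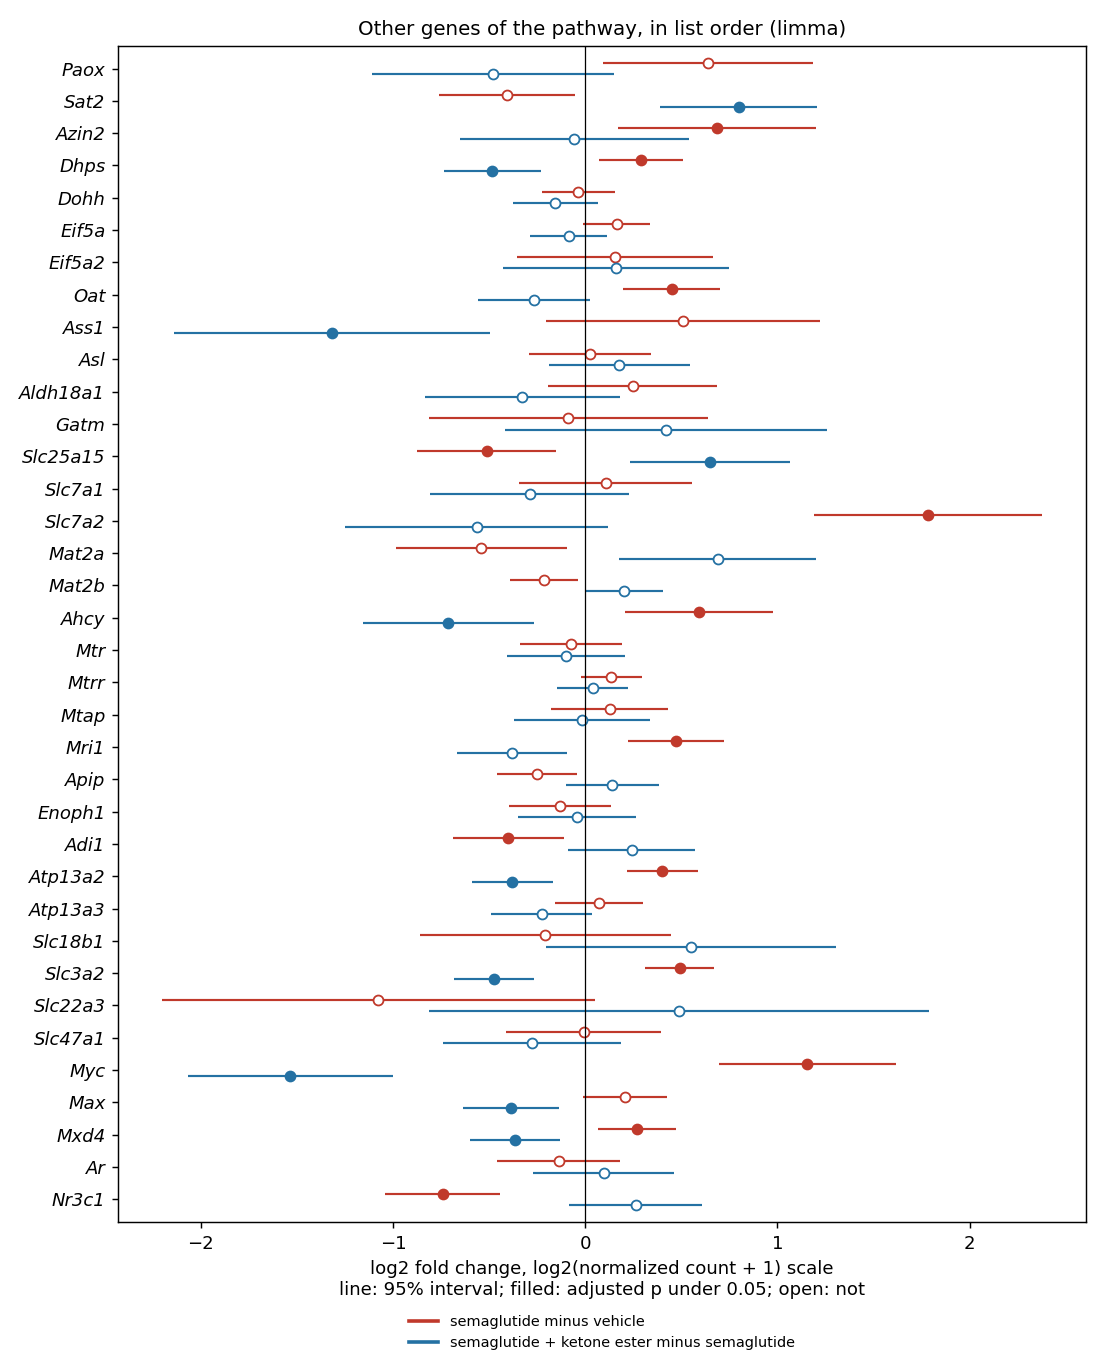
Log2 fold changes (x axis) by limma with 95% intervals of the 36 other pathway genes tested, in the order of the lists, for semaglutide minus vehicle (red) and semaglutide + ketone ester minus semaglutide (blue), with filled points where the adjusted p was under 0.05. The largest red value is Slc7a2 at 1.78 and the lowest blue value is Myc at -1.53.

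Markers of cell types were read beside these results. Over all genes tested 12.5% were higher and 13.9% lower for semaglutide against vehicle (limma, adjusted p under 0.05). For semaglutide + ketone ester against semaglutide 10.0% were higher and 10.7% lower. The counts of markers below stand against these shares. All 6 muscle fibre markers were present in every mouse, with summed normalized counts of 2217580 to 2719680 in vehicle-treated mice, 1325580 to 2491600 under semaglutide and 2839270 to 3345990 with the ketone ester added. Of these, 1 was higher and 1 lower under semaglutide than under vehicle, and 3 were higher and 1 lower with the ketone ester than with semaglutide alone. Of 5 fibroblast markers, 4 were lower under semaglutide than under vehicle and 3 were higher with the ketone ester than with semaglutide alone, with sums of 5120 to 11723, 4625 to 6371 and 6644 to 11019 in vehicle, semaglutide and semaglutide + ketone ester.

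Tendon markers, 4 in all, gave 2 lower in the first of these comparisons and 2 higher and 1 lower in the second, with sums of 800 to 2452, 498 to 1250 and 1236 to 1650.0 in the same order. All 5 erythroid markers were higher with the ketone ester than with semaglutide alone, with sums of 1356 to 2291 in vehicle-treated mice, 50.5 to 3148 under semaglutide and 2849 to 5558 with the ketone ester added, and the 3148 was mouse 13. For semaglutide against vehicle the same 5 markers had log2 fold changes of -2.75 to -2.10 and unadjusted p under 0.05, but adjusted p of 0.0525 to 0.0785 (limma). Of 4 endothelial markers 2 were higher in the second comparison, and of 6 slow fibre markers 1 was lower in the first. None of the 3 satellite cell, 5 macrophage and leukocyte, 5 adipocyte and 4 Schwann cell markers tested passed the threshold by limma in either comparison, and 1 of them, an adipocyte marker in the first, had an unadjusted p under 0.05, while no marker on the lists was at 0 in all mice. Semaglutide mouse 16 had an adipocyte sum of 6114, against 46.2 to 486 in the other 4 semaglutide-treated mice, and a macrophage and leukocyte sum of 1036, against 251 to 395. It also had the lowest values of its group for Amd1, Amd2, Smox, Sms, Oaz1 and Oaz2 and the highest for Srm and Sat1. Without mouse 16 the number of polyamine genes past the threshold was again 6 for semaglutide against vehicle, and 6 for semaglutide + ketone ester against semaglutide, where Odc1 no longer passed (adjusted p = 0.0812, limma). The part of these markers in the polyamine results was not tested.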

How the data were processed

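Stranded mRNA libraries of gastrocnemius RNA from 13 mice (5 vehicle, 5 semaglutide, 3 semaglutide + ketone ester) were sequenced by the authors as 59 bp paired-end reads. The submitters' processing notes name DRAGEN, DESeq2 and the mm10 build. The program that counted reads on genes and its annotation are not given in the sources used here. The authors deposited 1 table of normalized counts, a signal per gene scaled by 1 factor per library and not raw counts. Dividing each library by its own step gave whole reads for 100% of values (within 0.01 read). The largest gap between these steps and median-of-ratios size factors was 1.32%. Between 15319471 and 23498162 reads were recovered per mouse.

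Groups came from the treatment labels. For the 12303 of 21868 genes with a mean of at least 10, log2(normalized count + 1) was tested with limma 3.58.1 (R 4.3.3, trend, all 3 groups in 1 model, Benjamini-Hochberg over all genes tested, threshold 0.05). This scale understates the change of low genes. Alternatives were edgeR 4.0.16 and DESeq2 1.42.0 on recovered reads, other pseudocounts, filters and scalings, sample weights, only the groups compared, each mouse left out, and, chosen after seeing the data, Amd1 and Amd2 summed. Loci and transcripts were taken from GENCODE vM21 and promoters from RefSeq. Windows and alignments were computed with Biopython 1.88. The test was tried on simulated data.

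The members and the lists were chosen with earlier results of these data known. All 10 members were named. Of each other list, genes past the threshold in at least 1 comparison were named, at most 4 by size, and for each member that passed, the 3 genes of highest correlation.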

Additional observations from a re-analysis of the deposited data

Results flagged for a closer look

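Semaglutide mouse 13 lay far from the other 4 semaglutide-treated mice in 4 of the polyamine genes, by Dixon's gap test in groups of 5 (critical gap over range 0.71). Its normalized count of Amd1 was 12955.4, against 1979 to 4284 in the other 4 mice (gap over range 0.79). Amd2 was at 4158.56 in the same mouse, with a gap over range of 0.784. Its value for Smox was 7577.28 (0.752). For Srm, which was higher under semaglutide, the mouse was low at 127.658 (0.712). In all, 30 groups of 5 mice were tested, of gene values and of ratios between genes, and chance alone flags about 1 in 20. All 4 values belong to 1 mouse and to genes that correlate with each other, so they are not independent. Dixon's test flagged no other value of the 10 genes. These gaps are on linear counts, whereas the tests used log2 values. On the log2(normalized count + 1) scale the gap over range of mouse 13 was 0.589 for Amd1, 0.618 for Amd2 and 0.529 for Smox, all under the critical value, and 0.776 for Srm, the one value of the 10 genes still past it. This mouse had the highest marker sums of the semaglutide group for erythroid (3148), muscle fibre (2491600), fibroblast (6371) and tendon (1249.5) genes. It was not the highest for the slow fibre, satellite cell, macrophage and leukocyte, endothelial, adipocyte or Schwann cell lists. The part of these markers in the values of mouse 13 was not tested.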

How the results depend on the processing

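Semaglutide against vehicle gave 5 to 8 polyamine genes past the threshold under every alternative. The number was 5 where Amd1 and Amd2 were summed, and 8 with sample weights and without mouse 13. Calls over all genes tested, 3255 of 12303 with all mice, rose in the same settings. They were 4986 of 12303 with sample weights and 4612 of 12320 without mouse 13. Semaglutide + ketone ester against semaglutide, 7 genes with all mice, gave 4 with only the 2 groups compared and 4 to 9 when each mouse was left out, 4 without semaglutide + ketone ester mouse 21 or 22 and 9 without semaglutide mouse 13. Semaglutide + ketone ester against vehicle gave 0 under each of them. The study's criterion gave 4 to 8 genes, 4 with a 2-fold limit or with adjusted p-values. The log2 fold change of Oaz1 turned sign in all 3 comparisons when columns were rescaled to equal totals, to 0.088, -0.104 and -0.016. For semaglutide + ketone ester against vehicle, leaving out each mouse gave -0.033 to 0.113 for Oaz1 (lowest without mouse 19), -0.128 to 0.22 for Azin1 (lowest without mouse 21) and -0.242 to 0.037 for Smox (highest without vehicle mouse 3). None of the values that turned sign had an adjusted p under 0.05. Equal totals moved the median of all genes to 0.17, -0.24 and -0.07 in the 3 comparisons. Normalized totals were 14876576 to 18100930 in semaglutide-treated mice and 18962089 to 20640976 in the mice of the other groups. Amd1, Amd2, Srm and Oaz2 passed in both comparisons with semaglutide, and Sms and Smox in the one against vehicle, under each alternative run. No paired analysis was possible because mouse numbers are not shared between groups. The 3 semaglutide + ketone ester–treated mice limit what that group can show, and the cause of the changes with single mice was not tested.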

Other observations

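The ratio of Azin1 to Oaz1 normalized counts, an inhibitor of antizymes against the main antizyme, had group means of 0.313 (range 0.27 to 0.40, n = 5) in vehicle-treated mice, 0.243 (0.171 to 0.327, n = 5) in semaglutide-treated mice and 0.334 (0.24 to 0.476, n = 3) in semaglutide + ketone ester–treated mice, and the ranges overlapped. The ratio of Sat1 to Odc1, 1 gene of breakdown against 1 of synthesis, was 0.114, 0.118 and 0.112 in the same order. Its ranges were 0.0789 to 0.148, 0.0895 to 0.151 and 0.0914 to 0.151, although both genes had their highest mean under semaglutide. Smox, Amd1 and Amd2 are not part of this ratio. The ratio of Amd1 to Sms had means of 13.1, 3.86 and 13.9, with every semaglutide-treated mouse at 7.69 or lower and every other mouse at 8.85 or higher. These counts are not per length and the ratios were not tested.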
